A study of Caenorhabditis elegans with 2 samples.

Results

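Proline tRNA genes were taken as the nuclear genes whose product is tRNA-Pro in the RefSeq annotation of the Caenorhabditis elegans assembly WBcel235 (ce11), with pseudogenes left out. The rule gave 42 genes among 612 nuclear tRNA genes. Occupancy by RPC-1, which forms the largest part of RNA polymerase III, had been mapped by chromatin immunoprecipitation and sequencing in a single group of 2 samples, biological replicates 1 and 3. Both came from whole young adult hermaphrodites of strain JK1107, which carries glp-1(q224) on chromosome III, a temperature-sensitive allele of the gene for the Notch receptor through which germ cells are kept dividing. The animals stably carried RPC-1 with GFP and FLAG at its C-terminus, and the precipitation used an antibody against GFP. For shearing of chromatin, the labels give a Bioruptor for replicate 1 but a microtip for replicate 3, so shearing and replicate cannot be told apart. The labels give no age and no growth temperature, and no untagged or otherwise treated group was analysed here.

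RNA polymerase III makes transfer RNAs, which bring amino acids to the ribosome and read codons with a 3-base anticodon. Its tRNA promoters lie inside the gene: the A box near the 5′ end and the B box further along are bound by the assembly factor TFIIIC, and a run of T after the gene ends transcription. Proline has a family of 4 codons, CCA, CCC, CCG and CCT. Anticodon TGG pairs with CCA, CGG with CCG and AGG with CCT, and the first A of AGG is commonly changed to inosine, which also reads other codons of the family. Proline is abundant in collagens, the proteins of the worm cuticle.

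The anticodon, read from a 7-base loop closed by a stem of 5 pairs, was TGG in 32 genes (76.2%), AGG in 6 (14.3%) and CGG in 4 (9.52%). The gene bodies fell into 14 different sequences. One TGG body was present in 24 copies, the CGG body in 4 and an AGG body in 3, while the other 11 bodies each occurred in 1 gene. The bodies below show how little separates the anticodon classes and the variants whose values are given later, with the anticodon in capitals in each and the A-box core GNNNANNGG and B-box core GTTCNANNC in capitals where they were found. GNNNANNGG also matches at base 2 of some bodies, and the later match is the one marked. All are RefSeq ce11 sequence, read 5′ to 3′ on the strand of the gene.
The TGG body with 24 copies, H06A10.t1, chrX:13511970-13512041, minus strand: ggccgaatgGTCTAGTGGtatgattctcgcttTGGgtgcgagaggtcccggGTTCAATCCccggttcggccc
The CGG body, B0212.t1, chrIV:3552189-3552260, minus strand: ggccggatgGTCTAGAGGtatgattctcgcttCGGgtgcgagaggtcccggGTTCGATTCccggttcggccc
An AGG body without the B-box core, C16B8.t3, chrX:3970265-3970336, plus strand: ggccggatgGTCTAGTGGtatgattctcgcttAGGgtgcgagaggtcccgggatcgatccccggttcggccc
A TGG body without the B-box core, K12H4.t1, chrIII:8069405-8069476, plus strand: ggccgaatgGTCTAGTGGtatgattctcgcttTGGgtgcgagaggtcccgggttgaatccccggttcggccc
An AGG gene with no IDR summit, C18A11.t1, chrX:8037507-8037578, plus strand: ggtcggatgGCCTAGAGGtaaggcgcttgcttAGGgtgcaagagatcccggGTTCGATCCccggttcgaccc
A short TGG gene with no IDR summit, ZK678.t5, chrX:15747806-15747869, minus strand: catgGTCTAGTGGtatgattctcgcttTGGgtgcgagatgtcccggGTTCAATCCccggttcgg
Its neighbour, ZK678.t2, chrX:15748031-15748101, plus strand: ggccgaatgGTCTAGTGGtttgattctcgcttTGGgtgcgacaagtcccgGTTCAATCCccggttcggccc

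Against the body with 24 copies, and counting from 1 at the 5′ end of the gene, the CGG body had A6G, T16A, T33C, A56G and C59T. The AGG gene C16B8.t3 had A6G, T33A, T53A and A56G, and its neighbour C16B8.t2 had T66C in addition. K12H4.t1 had C55G as its only difference, whereas C18A11.t1 had 14 differences and was the most divergent of the bodies of 72 bases. The A-box core was present in 42 of 42 proline genes against 77.1% of all nuclear tRNA genes, and it began at base 10 in 41 of them against 69.1%. In the short gene ZK678.t5 it began at base 5. The B-box core was present in 36 of 42 (85.7%) against 95.9% of all nuclear tRNA genes. It was missing from all 5 AGG genes with T53A (F33D11.t1, F14B4.t2, C29F4.t1, C16B8.t2 and C16B8.t3) and from K12H4.t1. A match or its absence describes these letters only. A run of 4 T began within 8 bases after the gene in all 42, and in 96.4% of all nuclear tRNA genes. Both motifs were searched on the sense strand, and searching both strands gave the same counts for the proline genes and 83.8% (A box) and 96.1% (B box) for all tRNA genes.

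RPC-1 was found at most proline tRNA genes. The IDR list was made from both replicates and holds the peaks that passed a threshold on the repeat of ranks. A gene bound in it can lack a summit in a replicate list, as C48C5.t3 did in replicate 3. The signal in the IDR list is the authors' own value per peak, without a unit that can be compared between lists. A gene was called bound where the summit of a peak, its highest point, lay within 250 bp of the gene, and it took the signal of the nearest such summit. In the IDR list 38 of 42 proline genes were bound (90.5%), against 92.3% of all nuclear tRNA genes. In the replicate 1 list 38 were bound, against 94.6% of all, and in the replicate 3 list 41 (97.6%), against 94.1%. In both replicate lists together 37 were bound (88.1%), against 93% of all. These shares lay near the background and say nothing particular about proline genes. In whole animals, a peak held by fewer cells and a weaker peak in each cell cannot be told apart.

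Signal at the proline genes was low among tRNA genes. The median IDR signal was 1610 over the 42 proline genes, with unbound genes at 0, against 2610 over all 612 nuclear tRNA genes and 2682 over the other 570. As a percentile, where 50 is the middle of all 612, the proline median was 28.4 in the IDR list, 27.9 in replicate 1 and 34.0 in replicate 3. Of the 42 genes, 32 lay below the median of all nuclear tRNA genes in the IDR list, 32 in replicate 1 and 27 in replicate 3. In the IDR list 17 lay below percentile 25 and 5 above percentile 75. Among the 20 isotypes with at least 10 genes, proline had the lowest median in the IDR list, just under histidine at 1615, and was 19th in replicate 1 and 18th in replicate 3. These are descriptions of 1 group, and no test over genes was made because genes are not replicates.

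The proline genes differed widely among themselves. The bound genes ran from 211 at R11G10.t2 to 6205 at T23F1.t2, a 29.5-fold range. T23F1.t2 (TGG, chrV:15465225-15465296) had 6205 in the IDR list, 5069 in replicate 1 and 1158 in replicate 3, and ranked 31 of 612, 31 and 33. Its summit lay 33 bp past its 3′ end and 34 bp past the 3′ end of the lysine tRNA gene T23F1.t1, which faces it, so the signal belongs to both genes and not to the proline gene alone. After it came B0212.t1 (CGG) with 5207, 4281 and 951 in the 3 lists, H06A10.t1 (TGG) with 4718, 3692 and 1029, and ZK899.t1 (TGG) with 4578, 3657 and 968. None of these 3 genes had another tRNA gene within 1000 bp, and their IDR summits lay inside the gene.

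**Figure D1:**
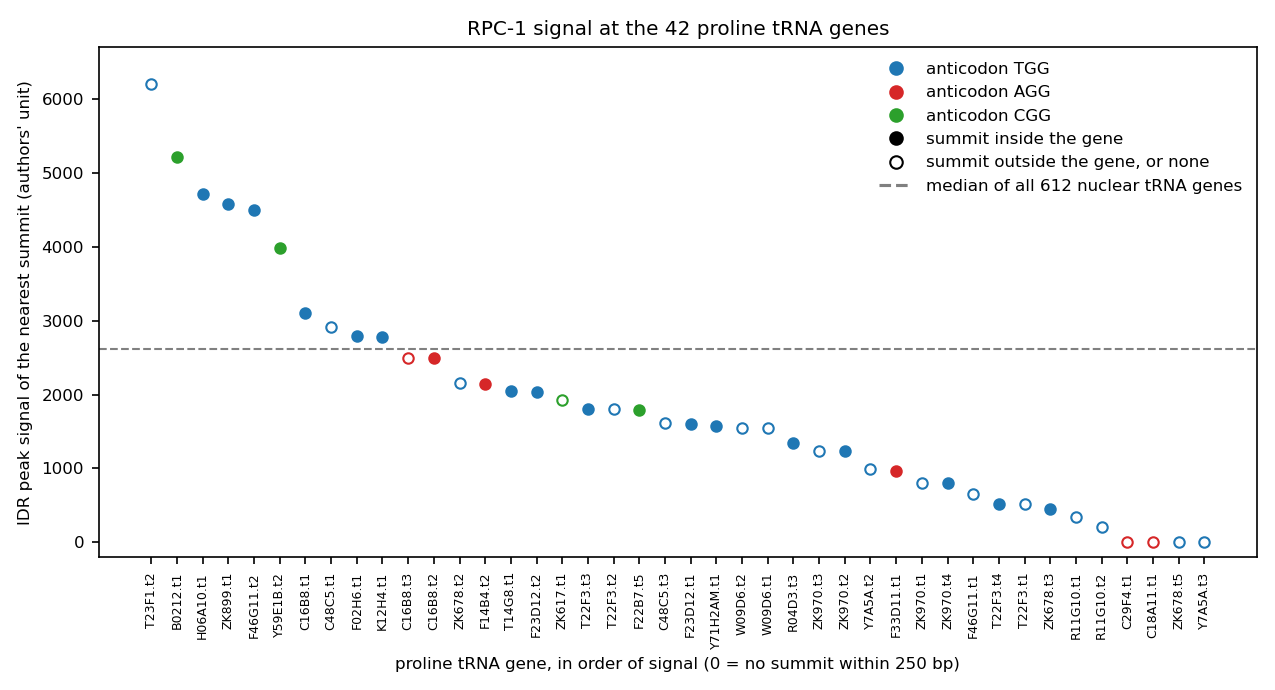
The IDR signal of the nearest summit within 250 bp (vertical axis, authors' unit) is plotted for each of the 42 proline tRNA genes (horizontal axis, in order of signal), coloured by anticodon, with filled points where the summit lies inside the gene and open points where it does not or where there is none. The dashed line is the median of all 612 nuclear tRNA genes, 2610, and 32 of the 42 points lie below it, 4 of them at 0.

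The CGG genes were the highest class by median. All 4 were bound, with an IDR median of 2954 (percentile 54.9), and the values were 5207 at B0212.t1, 3982 at Y59E1B.t2, 1925 at ZK617.t1 and 1791 at F22B7.t5. Their replicate 1 signals were 4281, 3272, 1683 and 1383, and their replicate 3 signals 951, 756, 262 and 415, so B0212.t1 and Y59E1B.t2 were the higher pair in each list and the lower pair changed order. These 4 genes have the same body. The summit of ZK617.t1 lay 81 bp outside the gene, and those of the other 3 inside it. No CGG gene had another tRNA gene within 1000 bp, whereas 23 of the 32 TGG genes did. The 12 TGG genes outside the divergent pairs described below had a median percentile of 46.0, and the 20 in them 24.4. The parts of anticodon and of neighbours in the order of the classes were not tested.

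TGG genes were bound in 30 of 32 cases, with an IDR median of 1563 (percentile 27.5). The lowest bound TGG genes were ZK678.t3 (IDR 457, replicate 1 365, replicate 3 103), R11G10.t1 (338, 251 and 69.999) and R11G10.t2 (211, 181 and 37.5). They were low in every list. AGG genes were bound in 4 of 6 cases, with a median of 1553 (percentile 29.5). The 6 AGG values were 2494 at both C16B8.t2 and C16B8.t3, which share a summit, 2139 at F14B4.t2, 967 at F33D11.t1, and none at C29F4.t1 and C18A11.t1. The AGG median moved by more than 1.5 times with the rule for assigning summits: it was at percentile 14.5 with a limit of 100 bp and 14.7 where a summit could serve only the nearest tRNA gene. In both settings C16B8.t3, 118 bp from the shared summit, counted as unbound. These medians therefore rest partly on genes without a summit.

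In the counts of distinct summits, which count a shared summit once, TGG genes had 25 summits with 74.0% of the summed IDR signal of proline genes, CGG genes 4 summits with 18.2% and AGG genes 3 summits with 7.88%. For comparison with what these tRNAs read, CCA made up 52.6% of the proline codons over 20828 protein-coding genes, CCG 19.96%, CCT 18.3% and CCC 9.17%. In 158 collagen genes proline codons were 15.0% of all codons, against 4.88% over all genes, and 80.5% of them were CCA. In 78 ribosomal protein genes CCA was 89.6% of proline codons. Codons were counted from the annotation without weighting by expression.

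**Figure D2:**
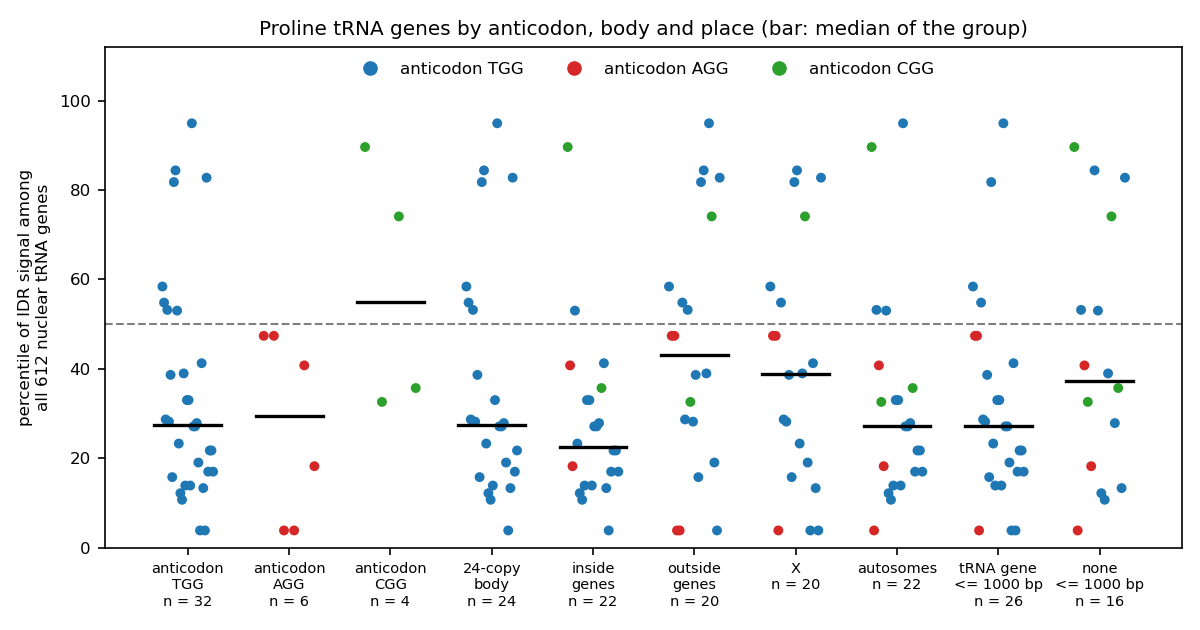
The percentile of each proline tRNA gene's IDR signal among all 612 nuclear tRNA genes (vertical axis) is plotted by anticodon, for the body with 24 copies, and by place, with points coloured by anticodon, a bar at the median of each group and a dashed line at 50. The bar for CGG genes is at 54.9 and that for genes inside protein-coding genes at 22.5, against 43.2 outside.

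Identical bodies carried very different signals. The TGG body with 24 copies ranged from no summit at Y7A5A.t3 to 6205 at T23F1.t2, with a median of 1563. Among its 11 copies with an IDR summit inside their own body, the highest was H06A10.t1 with 4718 and the lowest ZK678.t3 with 457, a ratio of 10.3. The same 2 genes differed by 10.1 times in replicate 1 and by 9.96 times in replicate 3. Between the CGG copies with a summit inside, B0212.t1 and F22B7.t5, the ratio was 2.91, and it was 3.10 and 2.29 in the replicates. Of the 3 copies of the AGG body, F14B4.t2 had 2139, F33D11.t1 had 967, and C29F4.t1 on chromosome IV had no summit in the IDR or replicate 1 list. A gene body present in 24 copies holds no 36-base word that occurs once in the genome, so reads wholly inside it cannot be placed by sequence, and how the authors treated such reads is not given in the sources used here.

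What surrounds identical copies does differ. The 50 bases before the gene and the 12 bases after it are shown for 4 isolated copies of that body, H06A10.t1 and ZK899.t1 near the top of the range and Y71H2AM.t1 and ZK678.t3 lower, with the run of T in capitals. Flanking sequence is RefSeq ce11 on the strand of the gene.
Before H06A10.t1 (IDR 4718), chrX:13512042-13512091: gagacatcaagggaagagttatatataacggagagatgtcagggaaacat
After H06A10.t1, chrX:13511958-13511969: atccTTTTTcaa
Before ZK899.t1 (IDR 4578), chrX:9467801-9467850: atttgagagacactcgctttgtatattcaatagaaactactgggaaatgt
After ZK899.t1, chrX:9467717-9467728: attccTTTTgag
Before Y71H2AM.t1 (IDR 1572), chrIII:2711661-2711710: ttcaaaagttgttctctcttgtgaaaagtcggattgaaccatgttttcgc
After Y71H2AM.t1, chrIII:2711783-2711794: attcTTTTTTgt
Before ZK678.t3 (IDR 457), chrX:15751370-15751419: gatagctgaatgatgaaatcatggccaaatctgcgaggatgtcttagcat
After ZK678.t3, chrX:15751492-15751503: attcaTTTTacg

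The 50 bases before the proline genes were 46 to 76% A or T, with a median of 59% against 58% over all nuclear tRNA genes. Across the 24 copies, IDR signal and this percentage had a Spearman's rho of −0.22, which is weak. Of the 36-base words in the gene and 250 bp to either side, the share found nowhere else in the genome was 86.9% in the median for proline genes, with a range from 64.8 to 99.6%, against 90.5% for all nuclear tRNA genes. Across the 24 copies this percentage and IDR signal had a Spearman's rho of 0.51, against 0.33 over the 42 proline genes and 0.11 over all 612. Neighbouring genes share summits and windows in these correlations, so the points are not independent.

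The 6 genes without the B-box core did not have a lower median than the rest. Of the 6, 5 were bound, against 33 of the 36 with the core and 92.3% of all nuclear tRNA genes. The IDR median was 2317 for the 6 and 1586 for the 36. Those 36 include the 20 TGG genes in the divergent pairs described below, which had a median of 1397, and the part of pairing was not tested. K12H4.t1, with C55G, had 2785 in the IDR list, 2220 in replicate 1 and 597 in replicate 3, and its summit was at base 18 of the gene in each list. Its IDR signal ranked 288 of 612, above the median of all nuclear tRNA genes. C16B8.t2 and C16B8.t3 shared 1 summit, at base 52 of C16B8.t2, so its signal of 2494 counts for both genes in the median.

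Proline genes were often paired. Of the 32 TGG genes, 20 stood in 10 divergent pairs, with their 5′ ends facing each other across gaps of 107 to 189 bp. Among pairs of tRNA genes of the same isotype no more than 200 bp apart, proline had 11, of which 10 were divergent, and glycine had 11 divergent pairs. Another tRNA gene of the same isotype lay within 1000 bp of 54.8% of proline genes, against 29.6% of all nuclear tRNA genes. The only close pair in the same direction was C16B8.t2 and C16B8.t3, 97 bp apart. In 6 of the 10 divergent pairs both genes were in an intron of the same gene, and 4 were outside genes.

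Most divergent proline pairs had a single IDR summit listed. In 7 pairs 1 summit was listed, and in 3 pairs 2, but divergent pairs of other isotypes were not counted in this way. The single summit lay 39 bp outside the pair at ZK678.t5 and ZK678.t2, and 98 bp outside it at Y7A5A.t3 and Y7A5A.t2. The median width of IDR peaks was 244 bp, more than the gap of any pair, and the part of peak width was not tested. In all, 13 of 42 proline genes (31%) took a summit that was also the nearest of another tRNA gene, against 10.5% of all nuclear tRNA genes. Of these 10 were in divergent pairs, and the other 3 were C16B8.t2 and C16B8.t3, which point the same way, and T23F1.t2, which shares with a lysine gene. Altogether the 38 bound proline genes had 32 different summits. In 4 of the pairs with 1 summit it lay inside a gene, which was the same in each list: ZK970.t4 for ZK970.t1 and ZK970.t4, ZK970.t2 for ZK970.t2 and ZK970.t3, T22F3.t4 for T22F3.t1 and T22F3.t4, and T22F3.t3 for T22F3.t2 and T22F3.t3. In each of these 4 pairs 1 gene has the body with 24 copies and its partner differs from it by 1 base, T65C in ZK970.t4, G50T in ZK970.t3, G63A in T22F3.t4 and G51C in T22F3.t3. The summit lay in the variant gene in 3 of the 4 pairs, and for ZK970.t2 and ZK970.t3 in the common body.

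The signals of these pairs spanned a wide range. The pair in pygl-1, the glycogen phosphorylase gene, had 525 in the IDR list, 393 in replicate 1 and 141 in replicate 3. The pair in clpp-1, which encodes a subunit of the mitochondrial Clp protease, had 810, 662 and 199. The pair in gcy-4, a receptor guanylyl cyclase gene, had 1240, 982 and 300. The pair in T22F3.2 had 1808, 1272 and 563, and so was the highest of these 4 in each list.

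In the other pairs the genes were less alike in signal or the summits lay aside. F46G11.t2 had 4499, 3666 and 848 in the IDR, replicate 1 and replicate 3 lists, while F46G11.t1, with the same body and 189 bp away, had 649, 352 and 219. F23D12.t2 and F23D12.t1 had 2037 and 1600 in the IDR list and 1916 and 1530 in replicate 1, but 226 and 364 in replicate 3, so the order of the 2 genes turned. For C48C5.t1 and C48C5.t3 both IDR summits lay outside the genes, 121 and 30 bp past their 3′ ends, with 2907 and 1619. W09D6.t1 and W09D6.t2, in an intron of rsa-2, a gene for spindle assembly, shared a summit between them in the IDR list, with 1554. Replicate 3 listed a summit in each of the W09D6 genes, with 408 in W09D6.t2 and 7.84 in W09D6.t1.

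Many summits lay outside the proline genes. The IDR summit lay inside the gene body in 22 of 42 (52.4%), against 75.5% of all nuclear tRNA genes, and within 100 bp in 31 (73.8%), against 86.9%. The share inside was 10 of 26 among proline genes with another tRNA gene within 1000 bp and 12 of 16 among those without one. Over all nuclear tRNA genes it was 146 of 236 and 316 of 376, so it was lower beside a neighbour there too. Where the summit was inside, its median place was base 12.5 of the gene, against base 13 over all nuclear tRNA genes, and 17 of the 22 lay in the first 20 bases, which hold the A box. At 9 genes (T23F1.t2, C48C5.t1, C48C5.t3, Y7A5A.t2, ZK678.t2, ZK617.t1, F46G11.t1, R11G10.t1 and R11G10.t2) the IDR summit lay downstream of the gene, at places where 100% of the 36-base words were unique. Replicate 3 placed it inside the gene for ZK678.t2, Y7A5A.t2, F46G11.t1 and R11G10.t1, and replicate 1 for F46G11.t1. The part of repeated sequence in the place of these summits was not tested.

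**Figure D3:**
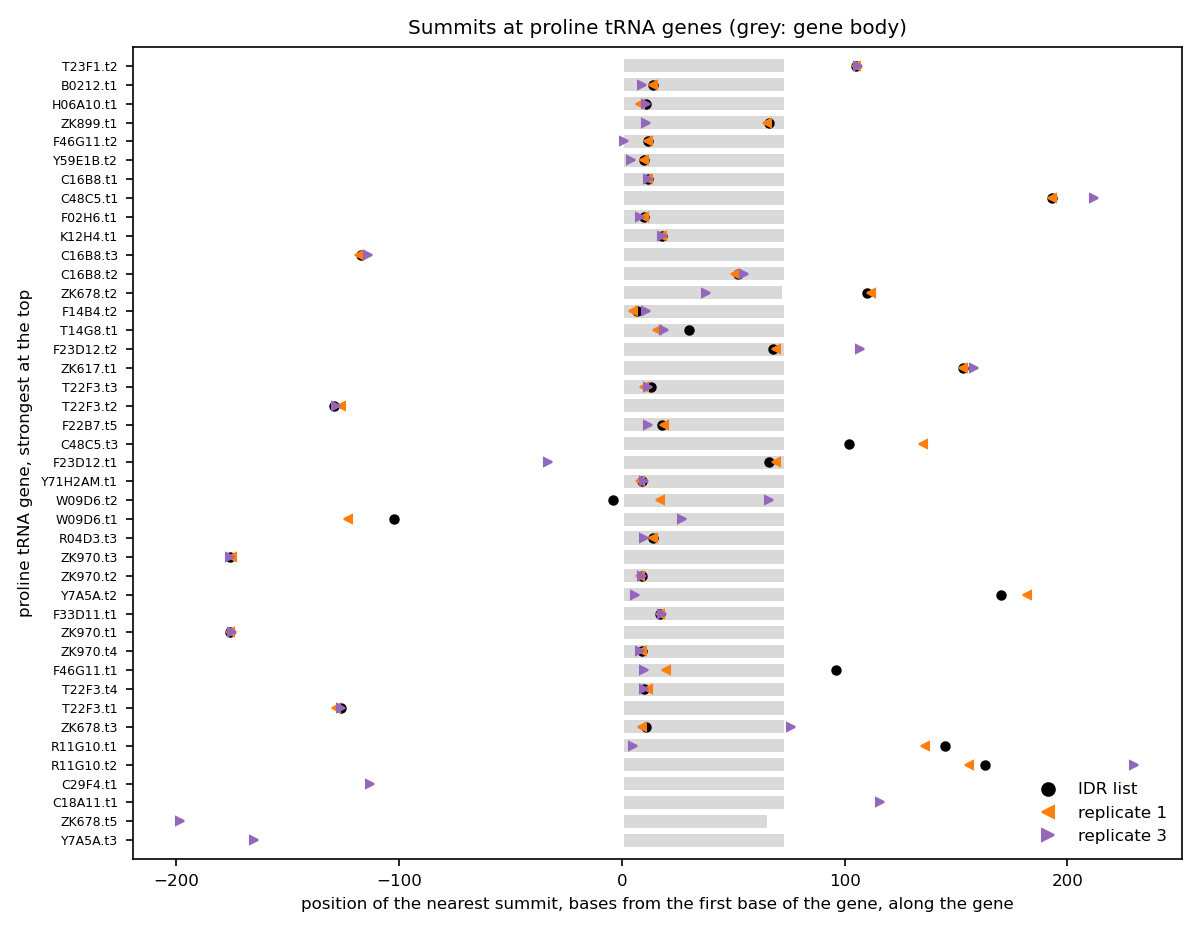
The place of the nearest summit within 250 bp (horizontal axis, bases from the first base of the gene in its direction) is plotted for each proline tRNA gene (vertical axis, strongest IDR signal at the top) in the IDR list (circles), replicate 1 (triangles pointing left) and replicate 3 (triangles pointing right), with the gene body in grey. Of the 42 genes 22 have the IDR circle inside the grey bar, mostly near its left end, and the other circles lie before the gene where neighbours share a summit or after it.

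The median signal was lower at proline genes inside protein-coding genes than at those outside. The 22 inside genes, all in introns of 14 host genes, had an IDR median of 1289 (percentile 22.5), and the 20 outside had 2269 (43.2). The medians over all nuclear tRNA genes were 2407 inside and 2893 outside. The order was the same in replicate 1 (percentiles 22.3 and 47.0) and in replicate 3 (26.5 and 43.1). Among the 24 identical TGG copies the 11 inside genes had a median of 1240 and ran from 211 to 1808, while the 13 outside had 2793 and ran from 0 to 6205. The ranges overlap. On the strand of the host 13 genes had an IDR median of 1554, and on the opposite strand 9 had 1240. That order turned in replicate 3, where the median percentile was 23.1 on the strand of the host and 28.0 on the opposite strand, against 27.3 and 21.4 in replicate 1.

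Hosts differed too. The intron of osm-9, a sensory TRPV channel gene, held the CGG gene B0212.t1 with 5207, and that of unc-22, the twitchin gene of body muscle, held the identical ZK617.t1 with 1925. K12H4.t1 lay in an intron of pros-1, the worm's Prospero homeobox gene, with 2785. The introns of avr-15, a glutamate-gated chloride channel gene, held R11G10.t1 and R11G10.t2, the lowest bound proline genes, with 338 and 211. The chemoreceptor gene srxa-9 held 3 proline genes with 2160 at ZK678.t2, 457 at ZK678.t3 and no IDR summit at ZK678.t5, and the related srxa-8 held R04D3.t3 with 1339. The neuropeptide-like gene nlp-62 held F33D11.t1 with 967.

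Chromosome X carried 20 of the 42 proline genes (47.6%), close to its share of all nuclear tRNA genes (45.1%). The other 22 were on chromosomes V (7), III (5), II (4), IV (4) and I (2). The IDR median was 2041 on X and 1554 on autosomes, against 3124 and 2285 over all nuclear tRNA genes. Place and chromosome go together here, since 16 of the 20 X-linked genes and 4 of the 22 autosomal ones were outside protein-coding genes. Outside genes, the median was 2269 for the 16 on X and 2292 for the 4 on autosomes, and inside genes 898 for 4 on X and 1397 for 18 on autosomes. The order was not steady between lists: the median percentiles on X and on autosomes were 47.0 and 41.0 in replicate 1 but 43.1 and 47.2 in replicate 3 outside genes, and 18.8 and 23.8 in replicate 1 but 40.5 and 24.8 in replicate 3 inside genes. With 4 genes in 2 of the groups these medians rest on few genes, and no direction is drawn from them. Over all nuclear tRNA genes the IDR median on X was higher both inside (3124 against 2111) and outside (3132 against 2617). The 24 identical copies had medians of 1619 on X (13 genes) and 1554 on autosomes (11 genes).

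Proline genes with another tRNA gene within 1000 bp were 26 of 42 (61.9%), against 38.6% of all nuclear tRNA genes. Their IDR median was 1554 (percentile 27.1) against 1985 (37.3) for the 16 without such a neighbour, and the medians over all nuclear tRNA genes were 2460 and 2777. With the summit required to lie inside the gene, only 10 of the 26 clustered genes had one. The median percentile of the 26, 12.3, was then that of a gene without a summit, and not a measured signal. TGG genes in divergent pairs had a median of 1397 (20 genes) and other TGG genes 2415 (12 genes), and the percentile medians were 23 and 45.2 in replicate 1 and 24 and 48.5 in replicate 3. A pair that shares 1 summit gives its signal to both genes, and a signal was not divided between them.

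The 4 genes without an IDR summit within 250 bp fell into different situations. C29F4.t1 (AGG, chrIV:11231565-11231636) was 34520 bp from the nearest IDR summit and had only a replicate 3 peak of 4.73, close to the lowest signal of that list, 4.59. C18A11.t1 (AGG), the divergent body printed above, was 762 bp from the nearest IDR summit, and had 6.87 in replicate 3 and 20.1 in the pooled list. That pooled summit lay inside the gene, at base 10, and the median signal of the pooled list was 15.0. ZK678.t5 and Y7A5A.t3 (both TGG) were 271 and 330 bp from the IDR summits of their divergent partners ZK678.t2 and Y7A5A.t2. In replicate 3 the summit of ZK678.t2 lay nearer, within 250 bp of ZK678.t5, and gave it 543. At the Y7A5A pair replicate 3 listed 2 summits. The one inside Y7A5A.t2 was within 250 bp of Y7A5A.t3 and gave it 159, and the other, with 125, lay 139 bp outside the pair. C29F4.t1 therefore had next to no listed signal, and C18A11.t1 had a low pooled peak inside the gene that was not in the IDR list. For the other 2 the listing turned on which summits of a neighbour were listed and where they lay.

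The order of the proline genes repeated between the replicates for most genes. The Spearman's rho between replicate 1 and replicate 3 signal was 0.83 over the 42 proline genes and 0.95 over all 612 nuclear tRNA genes, where genes that share a summit count more than once. The median difference of rank among 612 was 30 for the proline genes, and 8 proline genes differed by more than 100 ranks. These differences were not summarised over all nuclear tRNA genes, so 8 of 42 cannot be called few or many. The largest difference was at ZK678.t5 (292), followed by T22F3.t2 and T22F3.t3 with 164 each, F23D12.t2 (144) and W09D6.t1 (133). At ZK678.t5 and W09D6.t1 the replicates placed summits differently, as given above, while at T22F3.t2 and T22F3.t3 both lists had the same summit to within 2 bases and ranks of 445 in replicate 1 and 281 in replicate 3. C48C5.t3 had 1143 in replicate 1 and no summit in replicate 3.

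**Figure D4:**
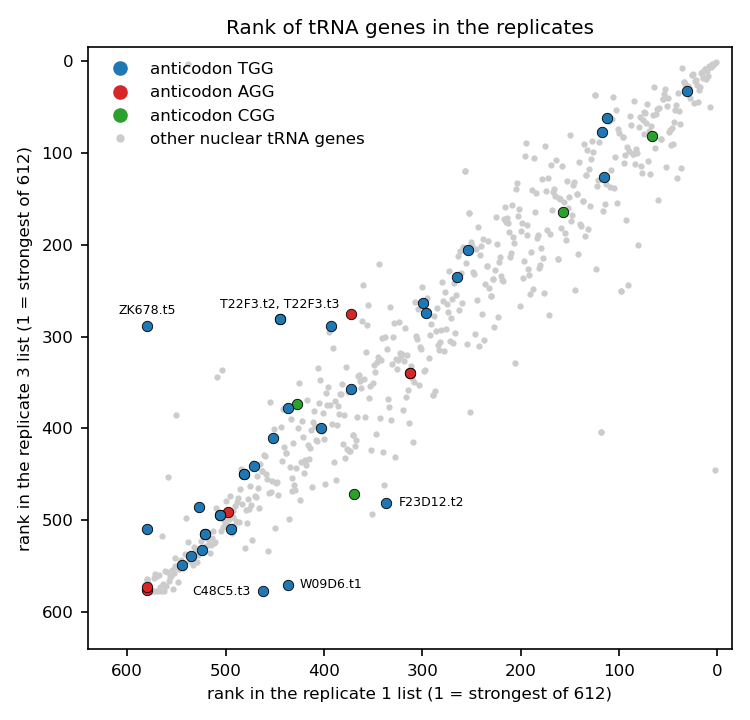
The rank of each nuclear tRNA gene among 612 is plotted in the replicate 1 list (horizontal axis) against the replicate 3 list (vertical axis), both running from weak to strong, with proline genes coloured by anticodon and other tRNA genes in grey. Most proline genes lie along the diagonal, and the labelled genes are those with large differences of rank, up to 292 at ZK678.t5.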

How the data were processed

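RPC-1 peaks came from 2 samples of 1 group. Peaks were called for each sample and on both pooled, and an IDR list was made from them, per the file headers. The authors deposited a signal value for each peak, relative to a control alignment, and a summit offset. Which aligner and peak caller were used, and how reads with several matches were treated, is not given in the sources used here. Since the lists hold no counts, the depth is unknown and no interval is given. For all 38 bound proline genes the IDR signal equals that of the pooled list. The IDR list held 1860 peaks, the replicate lists 29914 and 30000.

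Summits on ce11 were matched to RefSeq WBcel235 within 250 bp (Python 3.11.15, numpy 2.4.6, pandas 2.3.3). Percentiles use all 612 nuclear tRNA genes, with unbound genes at signal 0. Signals are compared within a list only, and ranks or percentiles between lists. No test was made. The matching was tested on simulated peaks at isolated tRNA genes only, so that test does not cover close neighbours or shared summits. Named genes were the extremes of each anticodon and identical body, unbound genes, genes sharing a summit and those differing most in rank; others were named after their values were seen. The members, lists and alternatives were chosen with earlier results of these data known.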

Additional observations from a re-analysis of the deposited data

How the results depend on the processing

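No paired analysis was possible because there is a single group. Each of 11 results was recomputed under 9 alternatives, and a median percentile counted as moved when it changed by more than the SD of the medians of the 2 replicates, which is small for some groups. By that rule 60 of 99 values stayed and 39 moved. With the pooled list or the 930 IDR peaks of highest signal, none moved. These settings could change little. All 38 bound proline genes have the same signal in the pooled list, and 37 stayed bound with the 930 peaks. Their unmoved values are counted in the 60 and show little about stability. With the summit inside the gene body, 22 proline genes counted as bound, and a gene without such a summit took percentile 12.3. The median percentiles were then 20.1 for TGG, 21.4 for AGG, 60.6 for CGG, 31.5 on X, 20.2 on autosomes, 12.3 with and 45.1 without another tRNA gene within 1000 bp. Only 16 of 32 TGG genes, 3 of 6 AGG genes and 11 of 22 autosomal genes had such a summit. The medians of those groups therefore rest partly on genes without a summit. With a limit of 100 bp they were 14.5 for AGG, 57.2 for CGG, 38.6 outside protein-coding genes, 31.7 on X, 24.2 on autosomes, 22.3 with and 40.2 without a neighbour, and with 500 bp 26.5 on autosomes. With the highest instead of the nearest summit they were 53.6 for CGG, 25.3 on autosomes, 26.0 with and 35.6 without a neighbour. Where a summit served only the nearest tRNA gene they were 14.7 for AGG, 58.1 for CGG, 24.7 on autosomes, 25.1 with and 41.2 without a neighbour.

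Leaving out 1 replicate, with the other list held to its top 1860 peaks, gave 38 to 39 bound genes. The median percentile ranged from 27.9 to 36.5 for all proline genes, 26.8 to 33.8 for TGG, 29.0 to 32.0 for AGG, 56.2 to 57.1 for CGG, 22.3 to 27.1 inside and 43.1 to 47.0 outside protein-coding genes, 37.5 to 43.1 on X, 26.8 to 29.6 on autosomes, 25.9 to 31.3 with and 39.2 to 40.4 without a neighbour. In all 9 alternatives the median of all proline genes stayed under 50, and CGG had the highest median of the anticodons. Outside was also above inside in all 9, X above autosomes, and genes without a neighbour above those with one. The order of X and autosomes did not hold within place. Outside genes the IDR medians were 2269 on X and 2292 on autosomes, and inside genes 898 and 1397. TGG and AGG had no single order in the main setting. By median IDR signal TGG (1563) lay just above AGG (1553), but by median percentile AGG (29.5) lay above TGG (27.5). The order by percentile changed at 100 bp, where a summit served only the nearest gene, and without replicate 1. The cause was not tested. Depth is unknown, and absence from a list does not show absence of RPC-1.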
